A study of Mus musculus with 4 samples.

Results

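The mitochondrial fission, fusion and mitophagy genes followed here were 10 genes picked by name: Mfn1, Mfn2 and Opa1 for fusion, Dnm1l, Fis1 and Mff for fission, and Pink1, Bnip3, Bnip3l and Fundc1 for mitophagy. Each is a protein-coding gene with 1 entry among the 29300 genes of the count table, and all 10 were among the 17144 genes that passed a filter on low counts. Hippocampal RNA was sequenced from 2 control mice and 2 surgery mice, all wild-type C57BL/6 males aged 7 to 8 months, with tissue collected 1 day after the procedure. Both groups received isoflurane anesthesia and tramadol for analgesia. The control mice had nothing further, and the surgery mice had an open fracture of the tibial shaft that was fixed with an intramedullary nail, a model of perioperative neurocognitive disorder. The comparison asks which of these genes differed in transcript level in the hippocampus a day after the fracture. Poly(A) RNA was sequenced as paired-end reads and the values are reads counted per gene.

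Mitochondria divide and join continually, and both processes are run by large GTPases. Mfn1 and Mfn2 sit in the outer membrane and tether and join neighbouring organelles, Opa1 joins the inner membranes, and the cytosolic GTPase Drp1 (gene Dnm1l) is recruited by outer membrane adaptors such as Mff and Fis1 to constrict and cut the organelle. In mitophagy, damaged mitochondria are handed to autophagosomes, either through the kinase Pink1, which marks them through ubiquitin, or through outer membrane receptors such as Bnip3, Bnip3l (also called Nix) and Fundc1, which bind LC3 family proteins. Neurons depend on this turnover because their mitochondria travel far from the cell body.

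The libraries held 15763432 to 18573386 counts, and 24238 to 25324 genes were detected in each. Levels are given as CPM, counts scaled to a common library size with TMM factors. The genes of the mitochondrial genome, without its ribosomal RNA genes, took 2.53% to 2.82% of all counts in control mice and 4.45% to 4.49% in surgery mice. Markers of hippocampal neurons were present in every mouse, with summed levels of 8009 and 8259 CPM in controls against 6942 and 7184 CPM in surgery mice over 8 genes, of which Neurod6, Zbtb20 and Gad2 were called higher and Camk2a and Slc17a7 lower. Over 5 astrocyte genes the sums were 2291 and 2347 CPM against 2032 and 2112 CPM, with Aqp4 and Gja1 called higher and Aldoc lower. Over 5 microglial genes they were 188 and 199 CPM against 187 and 189 CPM. P2ry12 was called higher, and the other 4 had negative log2 fold changes and were not called. Over 5 oligodendrocyte genes the sums were 4572 and 5330 CPM against 3276 and 5067 CPM, with no call. The 4 endothelial genes summed to 166 and 171 CPM against 168 and 219 CPM, with Flt1 called higher. The 4 choroid plexus genes differed between mice of the same group, with 126 and 5382 CPM in controls against 2019 and 3428 CPM in surgery mice. The tested genes of red blood cells and of neutrophils, 3 of 4 in each list, summed to between 4.87 and 10.3 CPM and between 1.57 and 10.8 CPM, and none was called. Of all genes tested, 13.1% were called higher and 12.8% lower. After the length and GC correction described below, none of these marker genes was called in either direction. The part of the marker levels in the results below was not tested, and in bulk tissue fewer cells of a type cannot be told apart from less RNA per cell.

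In the surgery mice, 4 of the 10 genes rose, 3 fell and 3 did not pass the test (edgeR's quasi-likelihood test, Benjamini-Hochberg adjustment over all genes tested, adjusted p under 0.05). Dnm1l, Opa1, Bnip3l and Fundc1 rose, and Pink1, Mfn2 and Fis1 fell. Mff, Mfn1 and Bnip3 were not called. Among all genes tested, 13.1% were called higher and 12.8% were called lower. Fundc1 was the only member that was also past a fold change of 1.5, which 6.75% of all genes passed with a call, and no member was called at or below 0.67, which 2.25% did. Both statements rested on single mice: without control 2 Fundc1 had a log2 fold change of 0.55, under a fold change of 1.5, and without control 1 Pink1 was called at -0.59, past 0.67. The members did not move together: their median log2 fold change was 0.12, beside 0.01 over all genes, and the values ran from -0.54 for Pink1 to 0.68 for Fundc1. The groups did not overlap for 5 members with higher and 3 members with lower values in the surgery mice, where 33.2% and 32.2% of all genes tested were so separated. The summed level of all 10 was 1467 and 1473 CPM in controls against 1409 and 1426 CPM in surgery mice.

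Most of these fold changes were smaller once transcript length and GC content were taken into account together. When the dependence of the counts on transcript length and GC content was fitted in each library and removed, none of the 10 members was called in either direction, while 0.987% of 17120 genes were called higher and 0.596% lower. With a block for the replicate number added, Mfn2, Pink1 and Bnip3 were called lower, where 6.4% of these genes were, though nothing ties mice of the same number. The corrected log2 fold changes lay between -0.21 and 0.10 for 9 members, and that of Bnip3 was -0.60. For each member the corrected value is therefore given beside the uncorrected one. Whether the counting used strand is not given in the sources used here. The p-values measure the spread between these 4 libraries.

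**Figure D1:**
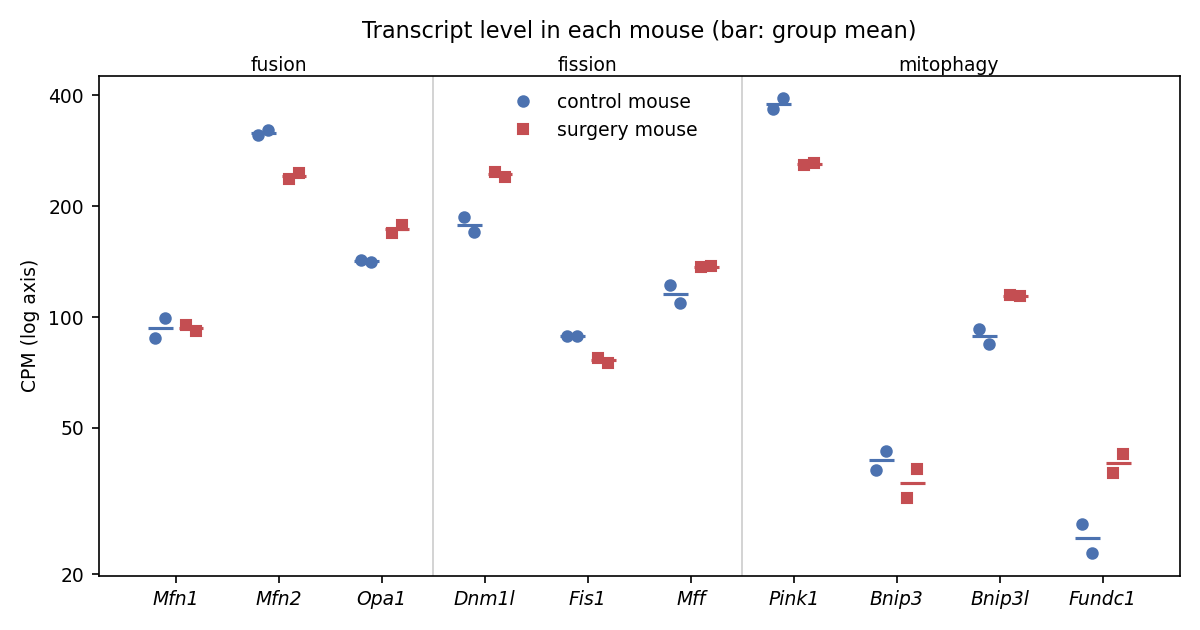
Transcript level of each member in each mouse, in CPM on a log axis. Circles are control mice, squares are surgery mice and bars are group means (n = 2 each). Both surgery mice lie above both control mice for Opa1, Dnm1l, Mff, Bnip3l and Fundc1 and below them for Mfn2, Fis1 and Pink1, while the groups overlap for Mfn1 and Bnip3.

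The study also measured nuclear respiratory factor NRF-1, a transcription factor of nuclear genes for mitochondrial proteins. Stretches upstream of the start are shown for 3 members, since these are the members whose promoter window holds the letters of its motif on either strand, GCGCA and GCGC with any 1 base between them. Of them, Opa1 rose, Pink1 fell and Bnip3 was not called. Each stretch is the 250 bases before the start, 5′ to 3′ on the strand of the gene, from the RefSeq annotation of GRCm38.p6, with the motif letters in capitals. They lie at chr16:29579084-29579333 on the plus strand for Opa1, at chr4:138326297-138326546 on the minus strand for Pink1 and at chr7:138909507-138909756 on the minus strand for Bnip3.
Opa1: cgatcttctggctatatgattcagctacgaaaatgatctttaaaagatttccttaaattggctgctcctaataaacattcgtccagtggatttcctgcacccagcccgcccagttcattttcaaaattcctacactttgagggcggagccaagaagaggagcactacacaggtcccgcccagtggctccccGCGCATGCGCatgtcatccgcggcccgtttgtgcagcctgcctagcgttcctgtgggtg
Pink1: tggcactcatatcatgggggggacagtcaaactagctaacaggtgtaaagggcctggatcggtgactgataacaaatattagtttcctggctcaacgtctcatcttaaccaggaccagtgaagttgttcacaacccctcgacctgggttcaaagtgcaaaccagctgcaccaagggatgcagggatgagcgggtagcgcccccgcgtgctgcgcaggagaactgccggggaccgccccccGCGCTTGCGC
Bnip3: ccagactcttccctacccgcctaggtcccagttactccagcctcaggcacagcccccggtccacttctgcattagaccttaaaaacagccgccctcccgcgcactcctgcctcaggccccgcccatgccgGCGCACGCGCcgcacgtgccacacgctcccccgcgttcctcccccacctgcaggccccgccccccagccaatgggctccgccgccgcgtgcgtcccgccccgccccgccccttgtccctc
Counted from the RefSeq start, with -1 as the base just before it, the motif begins at -59 in Opa1, at -10 in Pink1 and at -120 in Bnip3. The count table starts Pink1 at base 138326307, ahead of the RefSeq start, so the Pink1 motif lies inside the gene given there. It also starts Bnip3 ahead of the RefSeq start, at base 138909519, and the Bnip3 motif lies before both starts. In Opa1 the letters match on both strands, in Pink1 on the strand opposite the gene and in Bnip3 on the strand of the gene. RefSeq windows of 300 bases, 250 before and 50 after a start, were held for 9 members and numbered 14, and 3 of the 14 contained these letters. Among 32851 such windows of the mouse genome, 4.603% contained them.

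The core letters of the hypoxia response element, ACGTG or GCGTG on either strand, were present in 8 of the 14 windows, those of Bnip3, Dnm1l, Fis1, Mfn2 and Pink1, and in 43.8% of all windows. Bnip3, a known target of the hypoxia-inducible factor, had 5 matches, beginning at -117, -108, -107, -99 and -35. The matches at -108 and -107 lie on opposite strands of the same letters CACGTG and are not separate sites. The match at -117 overlaps the NRF-1 letters. The letters GTAAACA of FOXO factors and AAGGTCA of the estrogen-related receptor, searched on both strands, were in 0 of the 14 windows, beside 3.65% and 4.72% of all windows. Such matches describe the letters alone.

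Without correction, Mfn2 of the outer membrane fell, Opa1 of the inner membrane rose, and Mfn1, also of the outer membrane, was not called. Mfn2 (ENSMUSG00000029020, mm10 chr4:147873599-147904704, minus strand) codes for mitofusin 2, which also tethers mitochondria to the endoplasmic reticulum. It had 5370 and 5877 counts in controls against 3776 and 4149 in surgery mice, which is 312 and 322 CPM against 237 and 246 CPM. Both surgery mice were below both control mice, and the group means were 317 ± 6.92 and 241 ± 6.41 CPM (SD, n = 2 each). The change on the log2 scale was -0.39 with a standard error of 0.06 (adjusted p = 0.00652, edgeR). After removal of the length and GC trend it was -0.21 with a standard error of 0.05 and was no longer called (adjusted p = 0.101, edgeR).

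Mfn1 (ENSMUSG00000027668, mm10 chr3:32529465-32579239, plus strand), the other mitofusin, had 87.5 and 99.4 CPM in controls against 91.8 and 95.3 CPM in surgery mice. Both surgery mice lay between the control mice. Its log2 fold change was 0.00 with a standard error of 0.08 (adjusted p = 0.993, edgeR), and -0.16 with the same standard error after the correction (adjusted p = 0.340, edgeR). The ratio of Mfn1 to Mfn2 within a mouse can be read without any scaling of the libraries. Its log2 was -1.83 and -1.69 in controls against -1.31 and -1.42 in surgery mice, so both surgery mice had more Mfn1 relative to Mfn2 than either control mouse. The difference of the means was 0.40 (p = 0.33, exact permutation test, two-sided), and the corrected difference was 0.05. With 2 mice in each group, 0.33 is the smallest p this test can give.

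Opa1 (ENSMUSG00000038084, mm10 chr16:29579334-29654884, plus strand) codes for the inner membrane fusion GTPase, which also keeps the cristae in shape. It had 2463 and 2586 counts in controls against 2703 and 2994 in surgery mice, or 143 and 141 CPM against 169 and 177 CPM. The 2 groups were apart, with means of 142 ± 1.06 and 173 ± 5.59 CPM (SD, n = 2 each). On the log2 scale Opa1 changed by 0.29 with a standard error of 0.06 (adjusted p = 0.0177, edgeR). The call was lost without control 1 (0.29, adjusted p = 0.0545), without control 2 (0.27, adjusted p = 0.0755) and without surgery 2 (0.26, adjusted p = 0.0650). With the length and GC trend removed, the log2 fold change of Opa1 was 0.01 with a standard error of 0.06 (adjusted p = 0.965, edgeR).

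Among the fission genes, Dnm1l rose and its adaptor Fis1 fell, while the adaptor Mff had higher values in both surgery mice and was not called. Dnm1l (ENSMUSG00000022789, mm10 chr16:16312235-16359030, minus strand) had 3219 and 3103 counts in controls against 3964 and 4064 in surgery mice. In CPM these were 187 and 170 against 248.6 and 240.8. Each surgery mouse was above each control mouse, and the means were 178 ± 12.1 and 245 ± 5.49 CPM (SD, n = 2 each). On the log2 scale the change was 0.46 with a standard error of 0.07 (adjusted p = 0.0068, edgeR), and it was 0.02 with a standard error of 0.06 after the correction (adjusted p = 0.915, edgeR). An antisense gene, Gm49521, overlaps 4.67% of the exonic bases of Dnm1l, and reads from it cannot be told apart from those of Dnm1l if strand was not used.

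Fis1 (ENSMUSG00000019054, mm10 chr5:136953275-136966234, plus strand) codes for a small tail-anchored protein of the outer membrane. It had 1534 and 1627 counts in controls against 1233 and 1269 in surgery mice. In CPM the control mice had 89.1 and 89.0 and the surgery mice 77.3 and 75.2. Both surgery mice were lower than the control mice, which barely differed. The log2 fold change was -0.22 with a standard error of 0.06 (adjusted p = 0.0475, edgeR), close to the threshold. The call was lost without any 1 of the 4 mice: the adjusted p (edgeR) was 0.129 and 0.149 without control 1 and control 2, and 0.0828 and 0.189 without surgery 1 and surgery 2, at log2 fold changes of -0.23, -0.23, -0.26 and -0.20. With the trend removed, the value for Fis1 was -0.00 with a standard error of 0.06 (adjusted p = 0.983, edgeR).

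Mff (ENSMUSG00000026150, mm10 chr1:82724890-82752394, plus strand), the mitochondrial fission factor that recruits Drp1, had 2109 and 1992 counts in controls against 2183 and 2316 in surgery mice, or 122 and 109 CPM against 137 and 137 CPM. The control mice differed more between themselves than the surgery mice did. The log2 fold change was 0.24 with a standard error of 0.08 (adjusted p = 0.0565, edgeR), and without control 1 it was 0.32 and was called (adjusted p = 0.0378, edgeR). Without control 2 it was 0.16 (adjusted p = 0.259, edgeR). The corrected value was 0.10 with a standard error of 0.07 (adjusted p = 0.434, edgeR). Scaling by library totals put Mff past the threshold, at a log2 fold change of 0.29 (adjusted p = 0.0313, edgeR). The antisense gene C430014B12Rik, with 0 to 6 counts in a mouse, covers 2.00% of the exonic bases of Mff. The log2 ratio of Mff to Fis1 was 0.46 and 0.29 in controls against 0.82 and 0.87 in surgery mice, with no overlap. The difference of its means was 0.47 (p = 0.33, exact permutation test, two-sided, the smallest it can give), and 0.11 after the correction.

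**Figure D2:**
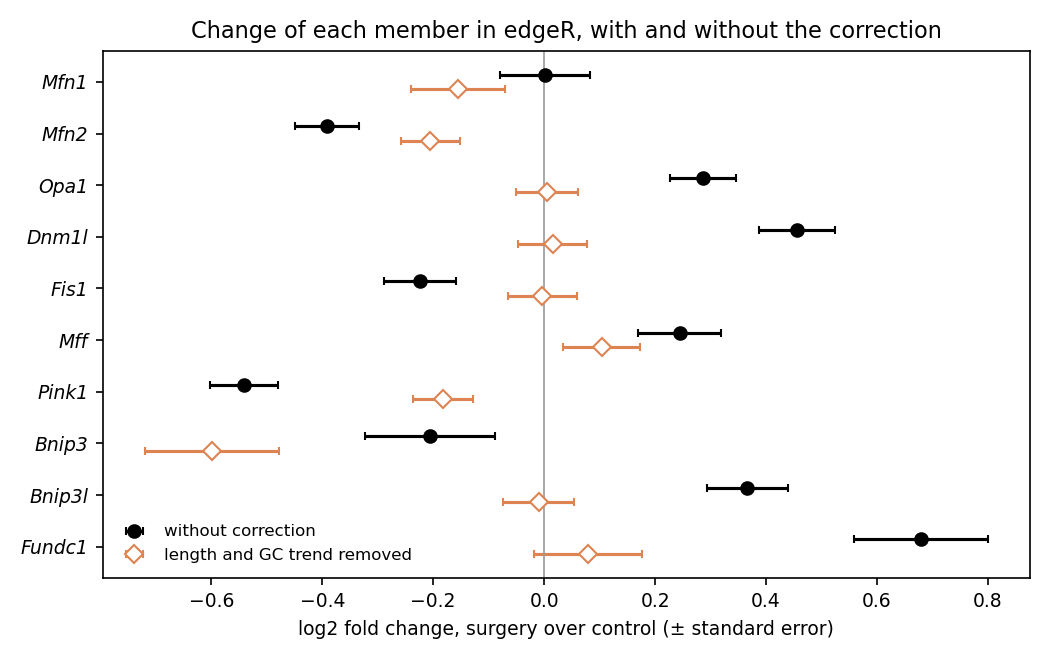
Log2 fold change of each member, surgery over control, with its standard error (n = 2 mice per group). Filled circles are the uncorrected edgeR values and open diamonds are those with the length and GC trend removed. The diamonds of 9 members lie between -0.21 and 0.10, and that of Bnip3 lies at -0.60.

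Of the mitophagy genes, the kinase Pink1 fell, the receptors Bnip3l and Fundc1 rose, and the receptor Bnip3 was not called. Pink1 (ENSMUSG00000028756, mm10 chr4:138313409-138326307, minus strand) codes for the kinase that accumulates on damaged mitochondria and phosphorylates ubiquitin. It had 6329 and 7175 counts in controls against 4136 and 4438 in surgery mice, or 367 and 393 CPM against 259 and 263 CPM. Both surgery mice were well below the control mice, and the group mean of 261 ± 2.56 CPM was 68.7% of the control mean of 380 ± 17.8 CPM (SD, n = 2 each). Its log2 fold change was -0.54 with a standard error of 0.06 (adjusted p = 0.00446, edgeR). The corrected value was -0.18 with a standard error of 0.05 and was not called (adjusted p = 0.133, edgeR). Pink1 and Mfn2 were the members called lower in every fit that left out 1 mouse, with log2 fold changes of -0.59 to -0.50 for Pink1. The small RNA genes Gm27646 and Mir7019 lie on the same strand within 6.70% of the exonic bases of Pink1, and reads there cannot be told apart.

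Fundc1 (ENSMUSG00000025040, mm10 chrX:17556564-17572325, minus strand) codes for a receptor linked to mitophagy in hypoxia. It had 471 and 418 counts in controls against 603 and 718 in surgery mice, the fewest of the members in the control mice. In CPM these were 27.3 and 22.9 against 37.8 and 42.5, and the groups were apart. The surgery mean of 40.2 ± 3.35 CPM was 1.60 times the control mean of 25.1 ± 3.16 CPM (SD, n = 2 each). The log2 fold change was 0.68 with a standard error of 0.12 (adjusted p = 0.0103, edgeR), and 0.08 with a standard error of 0.10 after the correction (adjusted p = 0.685, edgeR). When a mouse was left out, the uncorrected value ran from 0.55 to 0.81.

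Bnip3l (ENSMUSG00000022051, mm10 chr14:66985239-67008877, minus strand), the receptor that clears mitochondria from maturing red blood cells, had 1603 and 1542 counts in controls against 1832 and 1921 in surgery mice. Its levels were 93.1 and 84.4 CPM against 115 and 114 CPM, and each surgery mouse was above both control mice. On the log2 scale Bnip3l changed by 0.37 with a standard error of 0.07 (adjusted p = 0.0148, edgeR), and the call was lost without control 2 (0.29, adjusted p = 0.0700, edgeR). After the correction the value was -0.01 with a standard error of 0.06 (adjusted p = 0.949, edgeR). Of the 75 nt windows of its transcripts, 16.9% also occur in the pseudogene Bnip3l-ps, so that reads could have been split between them. Bnip3l-ps itself had 87 and 112 counts in controls against 89 and 106 in surgery mice (log2 fold change 0.08, adjusted p = 0.795, edgeR).

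Bnip3 (ENSMUSG00000078566, mm10 chr7:138890836-138909519, minus strand) is the close relative of Bnip3l, and it stood apart from the other low-GC members. It had 663 and 792 counts in controls against 515 and 652 in surgery mice, which is 38.5 and 43.3 CPM against 32.3 and 38.6 CPM. The groups overlapped, since surgery 2 was level with control 1. The log2 fold change was -0.21 with a standard error of 0.12 (adjusted p = 0.241, edgeR). It was -0.12 without control 2, -0.10 without surgery 1 and -0.34 without surgery 2, with no call in any of them. With the trend removed it was -0.60 with the same standard error and still missed the threshold (adjusted p = 0.0656, edgeR). With the replicate block added to the correction, Bnip3 was called at the same value (adjusted p = 0.000244, edgeR). Among the 2140 genes in the same eighth of GC content, 53 had a fold change at or below that of Bnip3, or 2.48%. The log2 ratio of Bnip3 to Bnip3l was -1.27 and -0.96 in controls against -1.83 and -1.56 in surgery mice, with no overlap. Its means differed by -0.58 without and -0.59 with the correction (p = 0.33, exact permutation test, two-sided, the smallest it can give). Bnip3 shares 34.4% of its 75 nt windows with 5 other annotated genes, and the antisense gene Gm45507 covers 22.3% of its exonic bases, so that its counts are uncertain. Of these 5 genes, the pseudogenes Gm16439 and Gm9419 had at most 4 and 1 counts in a mouse, and the others were not analysed here.

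**Figure D3:**
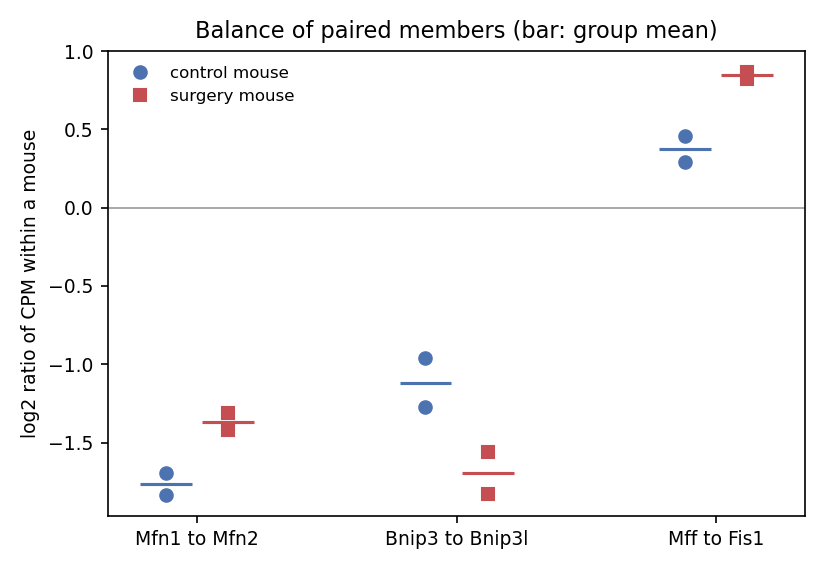
Log2 ratio of CPM between paired members within each mouse. Circles are control mice, squares are surgery mice and bars are group means (n = 2 each). Relative to its partner, Mfn1 and Mff were higher and Bnip3 was lower in both surgery mice than in either control mouse.

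Across the 10 members the order of the fold changes followed the GC content of the longest transcript. The members with the lowest GC content, Fundc1 at 38.8% and Dnm1l at 40.9%, had the largest positive log2 fold changes, and Pink1, with the highest at 59.0%, had the most negative. Bnip3l at 41.9%, Opa1 at 43.5% and Mff at 46.0% had smaller positive values, and Mfn2 at 53.1% and Fis1 at 54.4% had negative ones. Mfn1, at 45.9%, was near 0. Bnip3, at 41.6%, had a negative value at a low GC content. Spearman's rho was -0.85 over the 10 members and -0.64 over the 17120 genes with a GC content, a description across genes, which share the 4 libraries and are not independent replicates. After the correction it was -0.31 over the members.

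The share of genes called varied with GC content as well. The lowest eighth by GC content held Fundc1, Dnm1l, Bnip3l and Bnip3. Its median log2 fold change was 0.60, and 51.4% were called higher and 0.327% lower. In the second eighth, which held Opa1, the median was 0.32, and in the third, which held Mfn1 and Mff, it was 0.18. In the sixth eighth, with Mfn2 and Fis1, the median was -0.17 and 19.2% were called lower. In the highest eighth, with Pink1, it was -0.35 and 38.9% were called lower. Between mice of the same group the medians of the eighths lay between -0.10 and 0.06. With both surgery mice on the same side of this trend, the trend and the group cannot be told apart. Within their own eighths, the shares of genes at or below the member ranged from 18.6% for Pink1 to 60.2% for Mff, apart from Bnip3.

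**Figure D4:**
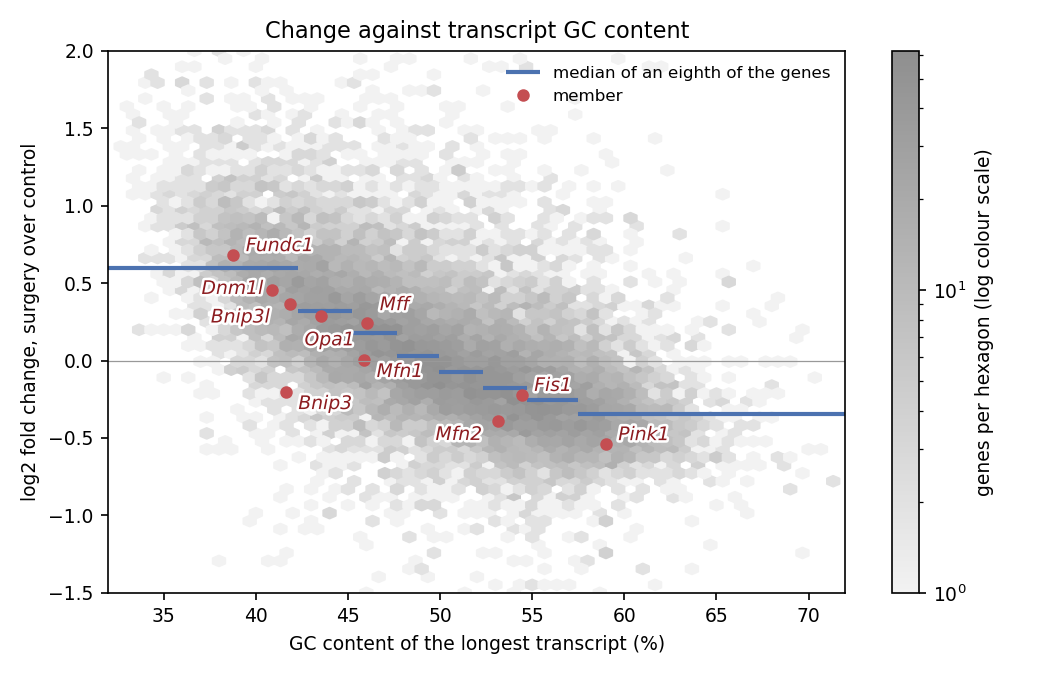
Log2 fold change, surgery over control, against the GC content of the longest transcript, in percent. Grey hexagons are the genes tested on a log colour scale, blue lines are the medians of eighths of the genes and red points are the members, and a few genes lie beyond the axes. The medians run from 0.60 at the lowest to -0.35 at the highest GC content, and Bnip3 lies far below the median of its eighth.

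Levels can be compared between genes only per length, here as CPM per kb of the longest transcript. In the control mice Pink1 was the most abundant at 160 ± 7.48, followed by Fis1 at 93.9 ± 0.03, Mfn2 at 72.9 ± 1.59, Mff at 55.4 ± 4.56 and Dnm1l at 45.0 ± 3.05 (CPM per kb, SD, n = 2 each). Bnip3l at 27.2 ± 1.89, Bnip3 at 23.3 ± 1.95, Opa1 at 22.8 ± 0.17, Mfn1 at 20.5 ± 1.83 and Fundc1 at 12.7 ± 1.60 followed. Bnip3 and Opa1 overlapped, and the other neighbours in this order were apart. In the surgery mice Mff, at 65.7 ± 0.12, and Dnm1l, at 61.7 ± 1.38, stood above Mfn2, at 55.6 ± 1.48, whereas Mfn2 had stood above both in the control mice. These levels still hold the length and GC trend. With it removed, the log2 fold changes were -0.21 for Mfn2, 0.02 for Dnm1l and 0.10 for Mff, and none was called. At the foot of the order in the surgery mice Mfn1 at 20.5 ± 0.55, Fundc1 at 20.3 ± 1.69 and Bnip3 at 20.2 ± 2.55 could not be ordered beyond their spread. Pink1 stayed the highest at 110 ± 1.08 and Fis1 the second at 80.4 ± 1.58. The place of Mff rests on the 2087 nt of its longest transcript: over its merged exons of 9757 nt it was ninth of the 10 in the control mice and last in the surgery mice. Over merged exons Fis1 was the third in the control mice, at 51.9 CPM per kb below Mfn2 at 61.0, and the fourth in the surgery mice, at 44.5 below Dnm1l at 47.0 and Mfn2 at 46.5, while Pink1 was first in both groups.

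The wider machinery was read from 61 other genes of fission, fusion and mitophagy, of which 59 were tested. Of these, 7 rose, 19 fell and 33 did not pass the test, with a median log2 fold change of -0.15, beside 13.1% and 12.8% of all genes called higher and lower. At the fold changes of 1.5 and 0.67, Yme1l1 and Fundc2 were called higher and Pgam5 and Map1lc3a lower. With the length and GC trend removed, none of the 59 was called and the median was -0.03. The genes called higher had transcripts of at most 44.0% GC. Mtfr2, with 5 to 11 counts in a mouse, and Calcoco2, with 0 to 2, were not tested.

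Of 13 fission adaptors and regulators, 2 rose, Slc25a46 and Gdap1, and 4 fell, Pgam5, Mtfp1, Mul1 and Mief2. Slc25a46 is an outer membrane carrier-like protein, and its level was 57.1 and 56.6 CPM in controls against 76.1 and 80.9 CPM in surgery mice (log2 fold change 0.47, adjusted p = 0.00709, edgeR), and 0.01 after the correction. Gdap1, mutated in Charcot-Marie-Tooth disease, had 93.0 and 89.5 CPM against 121 and 120 CPM (0.40, adjusted p = 0.00723, edgeR), and its sign turned with the correction (-0.03). Each of the surgery mice was above both control mice for these 2 genes. Pgam5, a phosphatase of the mitochondrial membranes, fell from 15.8 and 16.8 CPM to 10.1 and 9.24 CPM (-0.76, adjusted p = 0.0104, edgeR). Its value hardly moved with the correction, at -0.71, although the call was lost (adjusted p = 0.0574, edgeR). Mtfp1, a fission protein of the inner membrane, had a log2 fold change of -0.46 (adjusted p = 0.00647, edgeR) and a corrected value of -0.22. Of the Drp1 receptors MiD49 and MiD51, Mief2 fell by 0.42 on the log2 scale (adjusted p = 0.0478, edgeR) and Mief1 had 26.2 and 27.8 CPM against 27.9 and 25.8 CPM (-0.01, adjusted p = 0.952, edgeR). The corrected value of Mief2 was -0.09. Its call was also lost with library totals (adjusted p = 0.0668, edgeR), with no filter (adjusted p = 0.0894, edgeR) and with DESeq2 (adjusted p = 0.0892), and without any 1 of the 4 mice: -0.49 and -0.35 without control 1 and control 2, and -0.52 and -0.34 without surgery 1 and surgery 2 (adjusted p 0.0507 to 0.194, edgeR).

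Of 14 fusion genes, which here are inner membrane proteases, lipid enzymes and scaffolds, Yme1l1 rose and 5 fell, Chchd6, Phb, Miga2, Letm1 and Spg7. Yme1l1 and Oma1 are the proteases that cut the Opa1 protein. Yme1l1 had 56.7 and 49.3 CPM in controls against 88.9 and 95.1 CPM in surgery mice (log2 fold change 0.80, standard error 0.09, adjusted p = 0.00454, edgeR). Its corrected value was 0.13 (adjusted p = 0.330, edgeR), at a transcript GC content of 38.0%. Oma1 had 7.26 and 7.33 CPM against 5.89 and 7.23 CPM and was not called (-0.15, adjusted p = 0.595, edgeR, and -0.03 and -0.30 without surgery 1 and surgery 2). Chchd6, a subunit of the cristae junction complex MICOS, was at -0.56 (adjusted p = 0.00665, edgeR), and Phb, the inner membrane scaffold prohibitin, was at -0.42 (adjusted p = 0.0105, edgeR). After the correction these were -0.24 and -0.15, and neither was called.

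Of 15 genes of the PINK1 pathway, Usp15 rose and 6 fell, Tomm7, Ambra1, Park7, Rhot2, Vcp and Vps13d. Usp30, a deubiquitinase of the outer membrane, had 52.8 and 57.0 CPM in controls against 47.0 and 43.3 CPM in surgery mice and was not called (-0.28, adjusted p = 0.0539, edgeR). Usp15, another deubiquitinase, had 71.5 and 64.8 CPM against 91.6 and 88.9 CPM (0.41, adjusted p = 0.0124, edgeR), and its call was lost without control 2 (0.33, adjusted p = 0.0574) and with the correction (0.07). Tomm7, a small subunit of the import complex that helps to hold Pink1 on the outer membrane, had 25.8 and 26.9 CPM against 20.5 and 15.3 CPM. Its log2 fold change was -0.56 without (adjusted p = 0.0390, edgeR) and -0.82 with the correction (adjusted p = 0.0579, edgeR). The uncorrected call of Tomm7 was lost without control 1 (-0.59, adjusted p = 0.0632), control 2 (-0.54, adjusted p = 0.105) and surgery 2 (-0.36, adjusted p = 0.121), and with no filter (-0.57, adjusted p = 0.0931). Ambra1, an autophagy regulator, was at -0.43 (adjusted p = 0.00872, edgeR) and at -0.19 after the correction.

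Of 17 mitophagy receptors and adaptors, 3 rose, Fundc2, Tax1bp1 and Csnk2a1, and 4 fell, Map1lc3a, Fkbp8, Ulk1 and Sqstm1. Fundc2, the relative of Fundc1, had 18.5 and 19.5 CPM in controls against 32.3 and 38.1 CPM in surgery mice. Its log2 fold change was 0.89 with a standard error of 0.12 (adjusted p = 0.0053, edgeR), and 0.01 after the correction, at a GC content of 35.8%. So Fundc1 and Fundc2 both rose without the correction and neither was called with it. The autophagy adaptor Tax1bp1 had 90.9 and 88.1 CPM against 128 and 129 CPM (0.52, adjusted p = 0.00469, edgeR), with a corrected value of 0.17. Fkbp8, an outer membrane receptor, had 349 and 362 CPM against 250 and 232 CPM (-0.56, adjusted p = 0.00454, edgeR), with a corrected value of -0.15. Map1lc3a, one of the LC3 proteins that the receptors bind, had 148 and 159 CPM against 114 and 75.01 CPM (-0.70, adjusted p = 0.0317, edgeR). The call of Map1lc3a was lost without control 2 (-0.65, adjusted p = 0.0700, edgeR), with no filter (adjusted p = 0.0931, edgeR), with DESeq2 (adjusted p = 0.0613) and with the correction (-0.31). Its value was -1.05 without surgery 1 and -0.43 without surgery 2. Sqstm1, the ubiquitin adaptor p62, had 525 and 555 CPM against 445 and 437 CPM (-0.29, adjusted p = 0.0149, edgeR). Its call was lost without control 2 (-0.26, adjusted p = 0.0681) and without surgery 2 (-0.27, adjusted p = 0.0503), and the corrected value was -0.07.

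**Figure D5:**
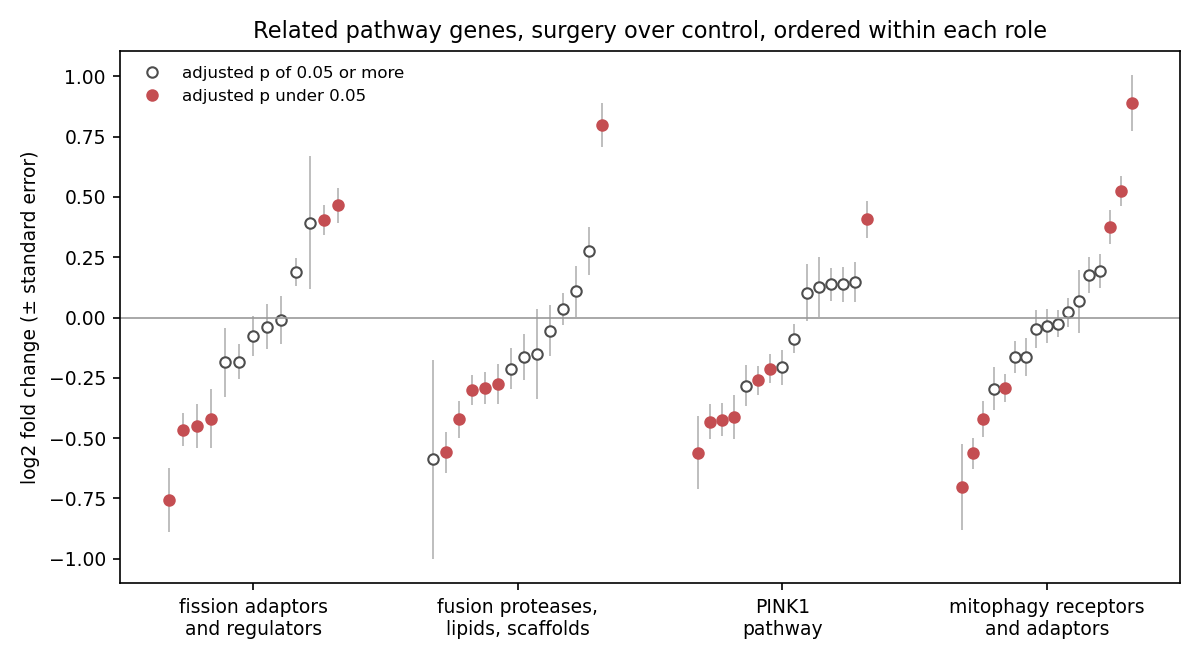
Log2 fold change, surgery over control, with its standard error for the 59 related genes tested, ordered by value within each role (n = 2 mice per group). Filled points have an adjusted p under 0.05 by edgeR without correction, 7 above and 19 below 0.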

How the data were processed

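Hippocampal RNA of 2 control and 2 surgery mice was analysed. The authors enriched poly(A) RNA, sequenced it as 150 nt paired-end reads, mapped the filtered reads to mm10 with HISAT and deposited raw counts per gene. The processing notes also list HISAT2 2.1.0, HTSeq 0.6.0, Bowtie2 2.2.3 and TopHat2, without their roles. The deposited mean signal, fold changes and p-values of the authors' own comparison were not used. Counts were fitted in R 4.3.3 with edgeR 4.0.16 (filterByExpr with a minimum count of 10, TMM, quasi-likelihood F test, Benjamini-Hochberg adjustment over 17144 genes). Standard errors were derived from the F statistic. Symbols given as dates (24 genes) were restored from identifiers. GENCODE M21 gave transcript GC contents, lengths, overlaps and shared windows. Trends with length and GC content were fitted per library with mgcv 1.9.3 (basis size 8) and entered as offsets. Coordinates are those of the table. The alternatives were DESeq2 1.42.0, other scalings, no filter, a replicate block, a fold threshold and leaving out each mouse. The procedure was also run on simulated counts, and no result given here rests on that run.

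Members and lists were chosen with earlier results of these data known. The text names all members, fixed related genes (Oma1, Yme1l1, Usp30, Mief1, Mief2, Sqstm1, and another that is not reported here) and, per role, the 2 largest rises and 2 largest falls among called genes of at least 1 CPM on average. Other called related genes, in counts of 6 or fewer, and sets of called markers were named after their values were seen. Mice of 1 group differed beyond counting noise (chi-square per gene 13.4 for the control and 8.45 for the surgery mice).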

Additional observations from a re-analysis of the deposited data

How the results depend on the processing

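All values here are surgery over control, and fold changes are log2. The number of genes called was 4450, and it was 2665 without the filter on low counts, 271 with the length and GC correction, 2616 with the correction and the replicate block, 1544 with the fold threshold and 2408 to 4105 when 1 mouse was left out (fewest without control 2, then 2933 without surgery 2). Members called higher, 4, became 0 with the correction, with or without the block, and 1 with the fold threshold. Their number fell without control 2 and without surgery 2. Members called lower, 3, became 0 with the correction and 0 with the fold threshold, and their number fell when any 1 mouse was left out. Of all genes, 0.987% were called higher and 0.596% lower with the correction, and 8.88% and 6.4% with the block added. The shares were 6.75% and 2.25% with the fold threshold, and 4.49% and 4.61% without the filter. Related genes called higher, 7, became 0 with the correction, 3 with correction and block and 2 with the fold threshold. Their number fell without control 2 and rose without surgery 1. Related genes called lower, 19, became 11 without the filter, 0 with the correction, 9 with correction and block, 2 with the fold threshold and 8 to 18 when a mouse was left out (8 without control 2, 10 without surgery 2). The medians of 0.12 for the members and -0.15 for the related genes became -0.0065 and -0.028 with the correction, -0.0062 and -0.030 with the block added, and lay at 0.10 to 0.14 and -0.15 to -0.09 when a mouse was left out. The corrected ratios differed by 0.050 for Mfn1 to Mfn2 and 0.11 for Mff to Fis1.

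With the correction Mfn2 was at -0.21 and Pink1 at -0.18, and both calls were lost. With it, and also with the block added, Opa1 was at 0.0057 and 0.0056, Dnm1l at 0.015 and 0.015, Fis1 at -0.0032 and -0.0032, Fundc1 at 0.080 and 0.080, Bnip3l at -0.0097 and -0.0093 and Mfn1 at -0.16 and -0.15, so that Bnip3l and Mfn1 changed sign. Mfn1 was also negative with DESeq2 size factors, with no filter and with DESeq2 (-0.0078, -0.0094 and -0.0079). Fis1 lost its call with library totals (-0.18), no filter (-0.23) and DESeq2 (-0.23), and Mff gained one with library totals (0.29). The ranges when a mouse was left out were -0.093 to 0.091 for Mfn1, 0.26 to 0.30 for Opa1, -0.26 to -0.20 for Fis1, 0.16 to 0.32 for Mff, -0.34 to -0.10 for Bnip3 and 0.29 to 0.43 for Bnip3l. Mief1 turned positive with library totals (0.037), the correction (0.054), correction and block (0.054), and ranged from -0.083 to 0.052 when a mouse was left out (0.028 and 0.052 without control 2 and surgery 2), and Gdap1 turned negative with the correction and with the block added (-0.028 and -0.029). The cause was not tested.

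Replicate numbers were shared by the groups, but nothing ties a control mouse to the surgery mouse of the same number, and with 2 pairs the correlation of their differences (0.22) cannot show a pairing. With the replicate block 5279 genes were called, 5 members higher (Mff at 0.25 added, adjusted p = 0.0355, edgeR) and 3 lower, where 15.5% and 15.3% of all genes were, and 9 related genes higher and 23 lower, Usp30 now among them (-0.28, adjusted p = 0.04995, edgeR). With correction and block, 0 members were called higher, where 8.88% of 17120 genes were, and Mfn2, Pink1 and Bnip3 (-0.60, adjusted p = 0.000244, edgeR) lower, where 6.4% were. With 2 mice a group, the median standard error over all genes was 0.14 on the log2 scale.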
